A study of Homo sapiens with 8 samples.

Results

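The SR splicing factors SRSF1, SRSF2, SRSF3, SRSF4, SRSF5, SRSF6, SRSF7, SRSF8, SRSF10 and SRSF11 were measured by mRNA sequencing in human colon cancer cells. These 10 genes were taken by symbol from the 64253 Ensembl genes in the count tables, each symbol mapped to a single gene, and all 10 were among the 20305 genes with enough counts to be tested. The study asked how HCT-8 colon cancer cells, which are sensitive to the antimetabolite 5-fluorouracil (5-FU), differ from the 5-FU-resistant line HCT-8/FU, and how HCT-8 cells respond to conditioned medium (CM). The 8 libraries formed 4 groups of 2, namely HCT-8 and HCT-8/FU in unconditioned medium and HCT-8 cells kept in CM taken either from HCT-8 (own CM, labelled CM of HCT-8) or from HCT-8/FU (resistant CM, labelled CM of HCT-8/FU). CM was collected after 48 h of culture, and no 5-FU treatment of the sequenced cells is given in the labels. HCT-8/FU is a single resistant line, and nothing in the labels says that the 2 replicates of a group came from separate cultures, so the p-values measure the spread between these libraries, which may be technical.

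SR proteins carry RNA recognition motifs, which bind exonic enhancers in pre-mRNA, and an arginine and serine rich tail, which recruits spliceosome components. Kinases of the SRPK and CLK families phosphorylate the tail and so set the entry of SR proteins into the nucleus and their release from nuclear speckles. SR genes limit their own output through alternative exons that send part of their transcripts to nonsense-mediated decay. The per-gene counts used here do not separate the productive transcripts from those decay targets, of which the annotation lists at least 1 for each of the 10 genes and 6 for SRSF7.

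Total gene counts ranged from 5804124 to 34881349 per library, and the lowest count of any SR factor in any library was 363, so counting error was small for all 10 genes. Between 19.96% and 29.6% of the records were not aligned in 3 libraries (HCT-8 replicate 1, HCT-8/FU replicate 2 and CM of HCT-8 replicate 1), compared with 3.58% to 4.43% in the other 5. The libraries also differed in how expression followed the GC content of the genes. Across genes, the Spearman correlation of GC content with the deviation from the gene mean was -0.49 and -0.45 in HCT-8/FU, 0.05 and 0.21 in HCT-8, 0.37 and 0.53 in own CM, and -0.07 and -0.06 in resistant CM. Each comparison below is therefore given both as counted and after correcting every library for the GC content and the length of the genes. Of 11 colon epithelium markers, all 11 were detected in every library, with KRT8 highest, between 4720 and 5870, and GPA33 lowest, between 0.395 and 1.32, in CPM. CPM is the read count scaled to the size of the library after normalization by trimmed means of M-values (TMM), which sets 1 library as reference. The leukocyte markers PTPRC and CD3E were at 0 in all 8 libraries, whereas CD14 (0.355 to 1.51 CPM) and CD68 (0.167 to 0.691 CPM) were above 0 in all 8. Of 6 fibroblast markers, COL1A2 was at 0 in all 8 libraries and COL3A1, DCN and LUM were at 0 in 5 or 6, whereas COL1A1 (8.19 to 13.8 CPM) and PDGFRB (4.35 to 9.04 CPM) were detected in every library. The summed level of the 6 was 20.5 to 22.3 CPM in own CM and 12.5 to 18.3 CPM across the other groups. Of 3 endothelial markers, CDH5 was at 0 in 7 libraries and PECAM1 (0.79 to 1.92 CPM) and VWF (0.115 to 0.922 CPM) were at 0 in none. The part of these transcripts in the results was not tested.

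The proximal promoters of 5 SR factors are shown because these genes gave, as counted, the 2 contrasting patterns described below. SRSF10 and SRSF11 were higher both in HCT-8/FU cells and in HCT-8 cells under HCT-8/FU medium. By contrast, SRSF1, SRSF7 and SRSF3 were higher in HCT-8/FU cells and their response to the media differed from that. After the correction for GC content and length, none of the 5 was called higher in either comparison. The difference for SRSF3 was not called then either. Each line holds the 150 bases before the RefSeq start site, 5′ to 3′ on the strand of the gene, in build GRCh38.p14, and capitals mark matches to the motifs searched. The windows lie at chr1:23980328-23980477 on the minus strand for SRSF10, chr1:70205546-70205695 on the plus strand for SRSF11, chr17:58007247-58007396 on the minus strand for SRSF1, chr2:38751495-38751644 on the minus strand for SRSF7 and chr6:36594212-36594361 on the plus strand for SRSF3.
SRSF10: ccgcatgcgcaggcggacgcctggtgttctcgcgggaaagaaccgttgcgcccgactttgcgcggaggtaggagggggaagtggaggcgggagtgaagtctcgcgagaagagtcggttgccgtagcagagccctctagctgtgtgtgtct
SRSF11: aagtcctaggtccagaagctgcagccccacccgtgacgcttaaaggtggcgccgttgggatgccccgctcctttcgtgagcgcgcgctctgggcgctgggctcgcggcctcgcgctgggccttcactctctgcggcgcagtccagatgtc
SRSF1: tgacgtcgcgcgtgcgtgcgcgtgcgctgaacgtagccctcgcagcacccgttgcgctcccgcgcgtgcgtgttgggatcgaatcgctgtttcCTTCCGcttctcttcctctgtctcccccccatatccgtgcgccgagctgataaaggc
SRSF7: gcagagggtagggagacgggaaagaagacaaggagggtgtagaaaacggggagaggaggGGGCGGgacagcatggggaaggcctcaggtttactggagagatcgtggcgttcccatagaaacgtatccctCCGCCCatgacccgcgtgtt
SRSF3: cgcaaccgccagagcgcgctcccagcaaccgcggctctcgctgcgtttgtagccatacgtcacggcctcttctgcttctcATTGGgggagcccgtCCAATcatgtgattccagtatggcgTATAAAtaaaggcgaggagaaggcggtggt
The 6 motifs searched on both strands were the CCAAT box (spelled CCAAT), the GC box in the form GGGCGG, the ETS core in the form CGGAAG, the E-box in the form CACGTG, the TATA element in the form TATAAA and the cyclic AMP response element in the form TGACGTCA. No motif contains another. A match is a description of the letters and does not show that a factor binds there. The SRSF1 window held CGGAAG on the opposite strand, which 12.5% of the 35116 promoter windows of this length also hold. The SRSF7 window held GGGCGG on both strands, a motif found in 36.8% of windows. The SRSF3 window held CCAAT on both strands and TATAAA, which occur in 23.5% and 6.71% of windows. None of the 6 motifs was matched in the SRSF10 or the SRSF11 window, which says only that these letters are not there. By the gene positions given below, the whole SRSF10 window lies inside the annotated gene. Part of the SRSF1, SRSF3 and SRSF11 windows does so too. For SRSF7 and SRSF11 the promoter source lists 2 start sites each, and 1 window is shown. Of the 9 SR factors with a promoter window, 3 held GGGCGG (SRSF4, SRSF6, SRSF7), 3 held CGGAAG (SRSF1, SRSF4, SRSF5) and 2 held CCAAT (SRSF3, SRSF8), while the E-box and the cyclic AMP response element, present in 4.57% and 1.4% of all windows, were matched in none. SRSF2 was not among the promoter windows.

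In GRCh38, the annotation places SRSF1 (ENSG00000136450) at chr17:58000919-58007346 on the minus strand, SRSF2 (ENSG00000161547) at chr17:76734115-76737333 on the minus strand, SRSF3 (ENSG00000112081) at chr6:36594353-36605600 on the plus strand, SRSF4 (ENSG00000116350) at chr1:29147743-29181900 on the minus strand and SRSF5 (ENSG00000100650) at chr14:69726900-69772005 on the plus strand. It places SRSF6 (ENSG00000124193) at chr20:43457893-43466046 on the plus strand, SRSF7 (ENSG00000115875) at chr2:38743599-38751494 on the minus strand, SRSF8 (ENSG00000263465) at chr11:95066919-95071225 on the plus strand, SRSF10 (ENSG00000188529) at chr1:23964347-23980927 on the minus strand and SRSF11 (ENSG00000116754) at chr1:70205682-70253052 on the plus strand. The 10 genes were expressed at unlike levels, compared here as CPM per kilobase of exonic sequence. In HCT-8, SRSF2, a speckle protein that activates exons through enhancers, was highest at 63.9 CPM per kilobase. SRSF6 and SRSF5, which both act on enhancer-dependent exons, followed at 58.8 and 57.5 CPM per kilobase, and their libraries overlapped. SRSF1, the prototype of the family and a known proto-oncogene, reached 31.4 CPM per kilobase, and SRSF3, a short family member that also acts in mRNA export, reached 26.4. SRSF7, which carries a zinc knuckle and also serves in export, had 18.4 CPM per kilobase and overlapped with SRSF11 at 17.4, which in turn overlapped with SRSF10 at 17.1. SRSF8, a retrogene copy of SRSF2, and SRSF4, a member with a long arginine and serine rich tail, were lowest at 11.9 and 10.7 CPM per kilobase. The order of the first 5 genes was the same in all 4 groups. In HCT-8/FU, SRSF11 (29.8) and SRSF10 (27.1) moved above SRSF7 (26.6 CPM per kilobase), although SRSF10 and SRSF7 overlapped there. In own CM, by contrast, SRSF7 (25.3) lay above SRSF11 (14.7) and SRSF10 (13.9 CPM per kilobase) in every library. These levels and their order are as counted. After the correction for GC content and length, the log2 fold change in HCT-8/FU against HCT-8 was 0.15 for SRSF11, -0.02 for SRSF10 and 0.20 for SRSF7. In own CM against HCT-8 the corrected values of these genes were 0.04, 0.04 and 0.56. The length used is the union of all annotated exons, which understates the level of genes with long rarely used exons. The level of genes that share exonic bases with other genes, such as SRSF1, may be understated too.

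The first comparison asked how the SR factors differ between resistant HCT-8/FU and sensitive HCT-8 cells. Of the 10 genes, 6 rose at a false discovery rate (FDR) of 0.05 and 2 of these, SRSF10 and SRSF11, also passed the log2 fold change threshold of 0.58 that defines a differentially expressed (DE) gene. None fell, and 0 were lower at an unadjusted p under 0.05 by edgeR or by DESeq2. Among all tested genes, 36.7% passed the FDR, 18.6% being higher and 18.1% lower, and 21.3% were DE, 13.2% higher and 8.12% lower. The median log2 fold change of the 10 genes was 0.41, compared with 0.01 for all tested genes. After the correction for GC content and length, only SRSF2 remained higher, 1 gene (SRSF4) was lower, 0 were DE, and the median was 0.01 (all tested genes -0.03, of which 11.9% were called higher and 16.3% lower). Such a correction takes out every difference that tracks GC content or length, biological or technical. As counted, SRSF1 and SRSF7 were DE as well, making 4, without HCT-8/FU replicate 1 or with another TMM reference library.

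SRSF11, an atypical SR protein that contacts U2AF, showed the highest log2 fold change of the 10. Its levels were 155.5 and 138.7 CPM in HCT-8 and 255.5 and 250.0 CPM in HCT-8/FU. The groups did not overlap, and the log2 fold change was 0.79 ± 0.10 (SE, n = 2 per group, edgeR adjusted p = 1.2e-05). SRSF10, a splicing repressor when dephosphorylated in mitosis or heat shock and a sequence-specific activator when phosphorylated, was at 205.1 and 201.0 CPM in HCT-8 and at 307.9 and 335.3 CPM in HCT-8/FU. Both resistant libraries lay above both sensitive ones, at a log2 fold change of 0.66 ± 0.07 (adjusted p = 3.8e-06). SRSF10 and SRSF11 have the lowest GC content of the 10 genes, 37.0% and 37.2%, and only 4.2% and 4.7% of tested genes lie below them (median of tested genes 49.0%). After the correction their log2 fold changes were -0.02 (adjusted p = 0.91) and 0.15 (adjusted p = 0.30). Neither remained called, and the part of the GC trend in the change was not tested.

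SRSF1 was at 187.1 and 175.8 CPM in HCT-8 and at 236.4 and 288.5 CPM in HCT-8/FU, at a log2 fold change of 0.53 ± 0.09 (adjusted p = 0.00033). SRSF7 went from 80.3 and 68.7 CPM to 104.1 and 111.3 CPM, a log2 fold change of 0.54 ± 0.10 (adjusted p = 0.00042). SRSF3 was at 192.7 and 183.4 CPM in HCT-8 and at 224.2 and 260.7 CPM in HCT-8/FU, at a log2 fold change of 0.36 ± 0.08 (adjusted p = 0.0022). The groups did not overlap for any of the 3 genes, and each change was below the DE threshold. Without HCT-8 replicate 2 the adjusted p of SRSF3 was 0.068. After the correction for GC content and length the log2 fold changes were 0.04 for SRSF1 (adjusted p = 0.84), 0.20 for SRSF7 (adjusted p = 0.19) and -0.10 for SRSF3 (adjusted p = 0.48), so none of the 3 calls remained.

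SRSF2 was the SR factor whose rise was about the same with and without the correction. Its levels were 195.6 and 184.8 CPM in HCT-8 and 252.9 and 273.9 CPM in HCT-8/FU. The log2 fold change was 0.47 ± 0.08 (adjusted p = 0.00018) as counted and 0.46 ± 0.11 (adjusted p = 0.0051) after correction. With a GC content of 46.5%, SRSF2 is the SR factor nearest to the median of tested genes. However, 27.7% of its exonic bases lie under exons of MFSD11, a transporter-like gene on the opposite strand, which rose too (log2 fold change 0.45 ± 0.08, adjusted p = 0.00034). The sources used here do not give whether reads were counted by strand, so reads of the shared bases cannot be assigned with certainty. SRSF1 also shares exonic bases with other annotated genes, 35.1% in all. One of them on the opposite strand, ENSG00000279069, had a log2 fold change of 0.49 ± 0.11 (adjusted p = 0.0019), while the other, ENSG00000266086 on the same strand, held 0 counts in all libraries.

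The remaining 4 genes did not pass the FDR. SRSF6 was at 293.3 and 282.0 CPM in HCT-8 and 325.9 and 316.9 CPM in HCT-8/FU (log2 fold change 0.16 ± 0.07, adjusted p = 0.072). SRSF8 was at 53.1 and 49.6 CPM and at 61.1 and 60.7 CPM (0.26 ± 0.10, adjusted p = 0.051). The groups did not overlap for either gene. SRSF4 was at 95.4 and 92.5 CPM in HCT-8 and at 89.1 and 88.9 CPM in HCT-8/FU, a log2 fold change of -0.08 ± 0.08 (adjusted p = 0.50) that was 0.01 with another TMM reference library. After the correction SRSF4 was called lower, at a log2 fold change of -0.49 ± 0.09 (adjusted p = 0.00076). SRSF5 overlapped between the groups, with 323.9 and 292.5 CPM in HCT-8 and 298.8 and 316.6 CPM in HCT-8/FU, and its log2 fold change of -0.002 (adjusted p = 0.99) changed sign with the scaling. SRSF6 and SRSF8 passed the FDR when either library of own CM was left out of the fit (adjusted p = 0.040 to 0.041 and 0.018), with another TMM reference library (0.0077 and 0.012), with a filter on the mean normalized count (0.041 and 0.033) and with a term for the libraries with many records not aligned (0.022 and 0.030). SRSF8 also passed with the size factors of DESeq2 (0.045) and with only the groups compared in the fit (0.032). After the correction SRSF6 was at -0.22 (adjusted p = 0.064) and SRSF8 at 0.17 (adjusted p = 0.23). Counting the direction alone, 8 of the 10 SR factors were higher in both HCT-8/FU libraries than in both HCT-8 libraries and 1, SRSF4, was lower, compared with 32.7% and 32.3% of all tested genes. Compared only within the libraries with many records not aligned (1 per group), the log2 ratios of the 6 genes that rose ran from 0.44 for SRSF3 to 0.71 for SRSF10, and within the other libraries (1 per group) from 0.29 for SRSF3 to 0.88 for SRSF11.

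**Figure D1:**
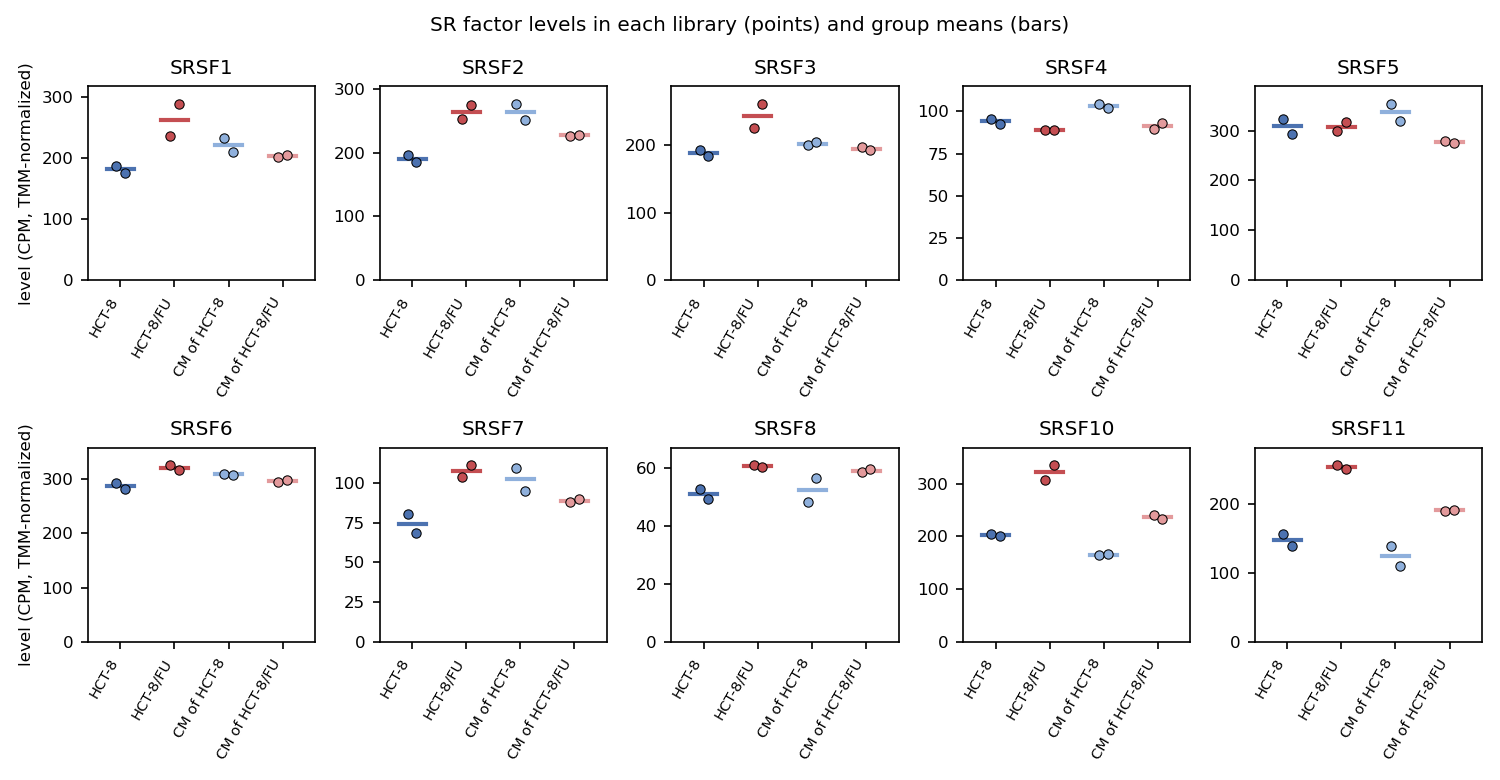
Level of each SR factor (CPM after TMM normalization, vertical axis from 0, 1 panel per gene) in the 4 groups; points are the 2 libraries of a group and bars their mean. SRSF10 and SRSF11 are higher in HCT-8/FU than in HCT-8 and higher in resistant CM than in own CM. The means of SRSF1, SRSF2, SRSF3, SRSF6, SRSF7 and SRSF8 are lowest in HCT-8.

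The second comparison asked whether HCT-8 cells express the SR factors differently in CM from resistant cells than in CM from their own kind. Here 2 genes rose at the FDR, SRSF10 and SRSF11, and 1 fell, SRSF5, and SRSF11 was the 1 DE gene. Among all tested genes, 19.7% passed the FDR (11.2% higher and 8.49% lower) and 9.25% were DE (7.97% higher and 1.28% lower). The median log2 fold change of the 10 genes was -0.09, and that of all tested genes was -0.06. After the correction for GC content and length, 5 SR factors were called lower and 0 higher (5.9% and 4.05% of all tested genes), with 0 higher at an unadjusted p under 0.05 in that edgeR fit. The rise of SRSF10 and SRSF11 was thus not called once GC content and length were taken into account. The summed level of the 11 colon epithelium markers was 9890 to 9960 CPM in resistant CM and 10900 to 11800 CPM in own CM, and its part in these values was not tested.

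SRSF11 was at 138.2 and 110.3 CPM in own CM and at 189.0 and 191.1 CPM in resistant CM. The log2 fold change was 0.62 ± 0.10 (adjusted p = 0.00025), and it was -0.003 (adjusted p = 0.99) after correction. Without CM of HCT-8 replicate 2 the log2 fold change as counted was 0.46, under the DE threshold, which leaves 0 DE genes by edgeR. SRSF10 was at 164.1 and 166.5 CPM in own CM and at 241.1 and 232.3 CPM in resistant CM. Its log2 fold change was 0.52 ± 0.07 (adjusted p = 9.6e-05) as counted and -0.17 (adjusted p = 0.28) after correction, and it was DE with another TMM reference library or with only the 2 groups in the fit. For both genes the libraries of the 2 groups did not overlap.

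SRSF5 fell from 353.9 and 318.9 CPM in own CM to 279.3 and 274.9 CPM in resistant CM, a log2 fold change of -0.28 ± 0.08 (adjusted p = 0.019). This call was lost without CM of HCT-8 replicate 1 (adjusted p = 0.059), HCT-8 replicate 2 (0.11) or either library of resistant CM (0.13 and 0.17). It was also lost with another TMM reference library (0.099), with the size factors of DESeq2 (0.069), in the DESeq2 test (0.052) and with only the groups compared in the fit (0.10), and the corrected value was -0.32 (adjusted p = 0.058). SRSF2, at 276.6 and 250.3 CPM against 226.3 and 227.8 CPM, had a log2 fold change of -0.21 ± 0.08 (adjusted p = 0.061). SRSF7, at 109.8 and 94.8 CPM against 88.0 and 89.8 CPM, had one of -0.19 ± 0.09 (adjusted p = 0.17). SRSF1, at 232.7 and 209.6 CPM against 200.8 and 204.8 CPM, had one of -0.12 ± 0.09 (adjusted p = 0.39). These 3 genes lay lower in both libraries of resistant CM without passing the test, although without CM of HCT-8 replicate 2 SRSF2 (adjusted p = 0.010) and SRSF7 (adjusted p = 0.028) passed it.

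SRSF4 was at 104.5 and 101.9 CPM in own CM and 89.5 and 93.3 CPM in resistant CM (log2 fold change -0.17, adjusted p = 0.12). SRSF3 was at 199.3 and 204.4 CPM and at 196.2 and 192.6 CPM (-0.06, adjusted p = 0.69), and SRSF6 at 309.4 and 308.0 CPM and at 295.0 and 298.6 CPM (-0.06, adjusted p = 0.61), and both values were 0.03 with another TMM reference library. SRSF8 was at 48.6 and 56.8 CPM and at 58.8 and 59.7 CPM (0.16, adjusted p = 0.27). The 5 genes called lower after the correction were SRSF1 (log2 fold change -0.57, adjusted p = 0.0039), SRSF3 (-0.49, adjusted p = 0.0059), SRSF4 (-0.56, adjusted p = 0.0012), SRSF6 (-0.38, adjusted p = 0.0091) and SRSF7 (-0.46, adjusted p = 0.013). Both libraries of resistant CM lay above both of own CM for 3 of the 10 SR factors and below for 7, compared with 26.9% and 34.5% of all tested genes. Both libraries of resistant CM had few records not aligned, and set against the single such library of own CM the log2 ratio was 0.51 for SRSF10, 0.78 for SRSF11 and -0.20 for SRSF5. It was -0.05 for SRSF1, -0.14 for SRSF2, -0.07 for SRSF3 and -0.09 for SRSF7. In the fit of all libraries these genes had -0.12, -0.21, -0.06 and -0.19.

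**Figure D2:**
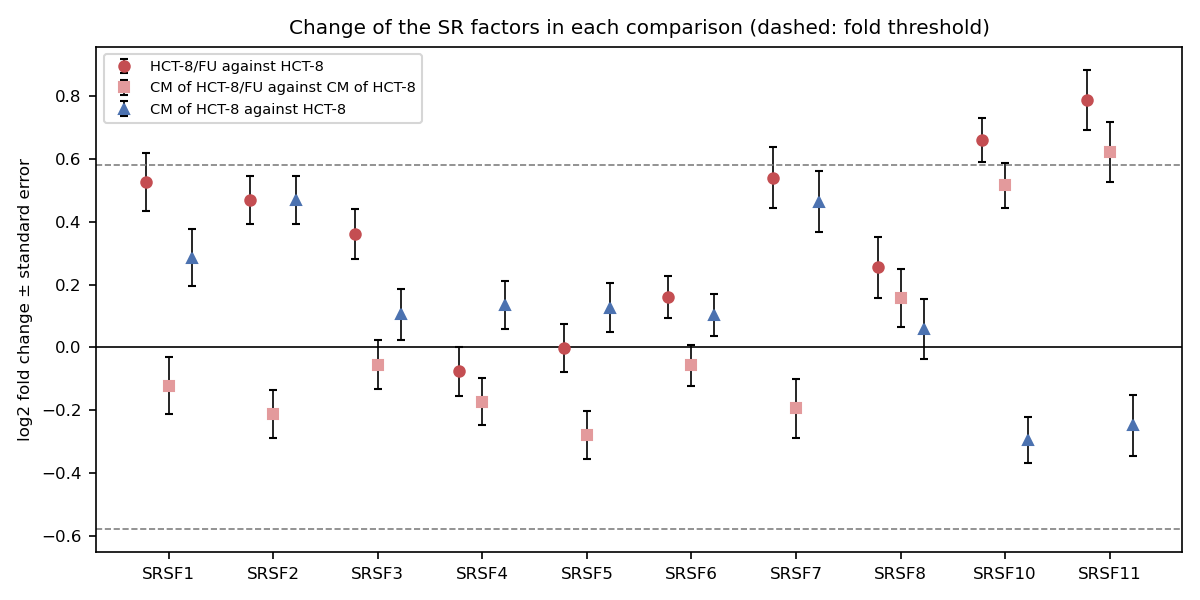
Log2 fold change of each SR factor (vertical axis, points with standard errors) in the 3 comparisons, with dashed lines at the DE threshold of 0.58. SRSF10 (0.66 and 0.52) and SRSF11 (0.79 and 0.62) are positive both in HCT-8/FU and in resistant CM. SRSF1, SRSF2, SRSF3, SRSF6 and SRSF7 are positive in HCT-8/FU and negative in resistant CM. None of these negative values passed the FDR. All values drawn are as counted. After the correction for GC content and length, SRSF1, SRSF3, SRSF6 and SRSF7 were called lower in resistant CM. SRSF3 (-0.10) and SRSF6 (-0.22) were then negative in HCT-8/FU, and SRSF10 and SRSF11 were called in neither comparison.

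**Figure D3:**
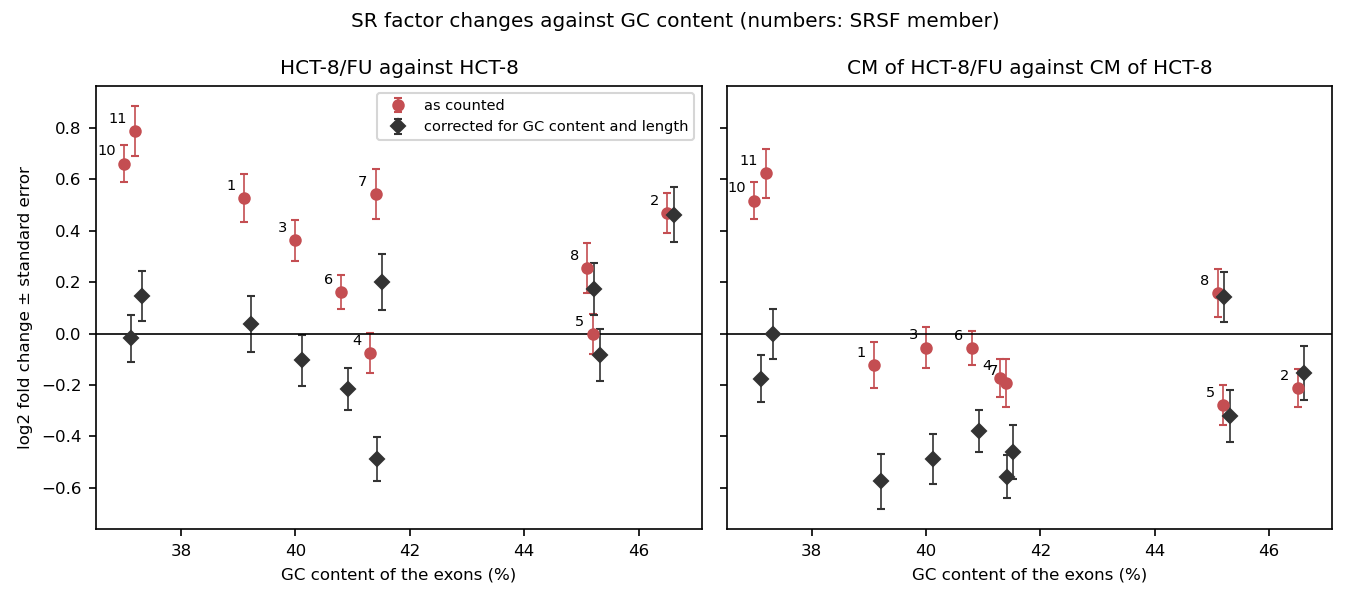
Log2 fold change of each SR factor (vertical axis, with standard errors) against the GC content of its exons in percent (horizontal axis), as counted (circles) and after correction for GC content and length (diamonds, drawn slightly to the right). In HCT-8/FU the circles of SRSF10 and SRSF11, at 37.0% and 37.2% GC, are highest and their diamonds lie at -0.02 and 0.15, whereas SRSF2 at 46.5% GC hardly moves.

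The change of the SR factors in HCT-8/FU cells and in HCT-8/FU medium was then compared directly, as a difference tested within the same fit. These 2 comparisons share no library. For 4 of the 10 genes the change in HCT-8/FU against HCT-8 was larger than the change in resistant CM against own CM at the FDR, and for 0 it was smaller (0 also at an unadjusted p under 0.05 by edgeR, and 0 by DESeq2). Among all tested genes, 11.6% passed this test, 5.15% in the direction of the 4 genes and 6.42% in the other. The difference of the log2 fold changes was 0.73 ± 0.14 for SRSF7 (adjusted p = 0.0023), 0.68 ± 0.11 for SRSF2 (adjusted p = 0.00075), 0.65 ± 0.13 for SRSF1 (adjusted p = 0.0040) and 0.42 ± 0.11 for SRSF3 (adjusted p = 0.026). The other 6 genes, SRSF10 and SRSF11 among them, had differences between 0.10 and 0.28 that did not pass the test.

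These differences moved little with the correction for GC content and length. It gave 0.66 for SRSF7 (adjusted p = 0.015), 0.61 for SRSF2 (adjusted p = 0.021) and 0.61 for SRSF1 (adjusted p = 0.022), which remained called, and 0.38 for SRSF3 (adjusted p = 0.11), which did not. After correction, 3.86% of all tested genes were called in this direction and 4.51% in the other. Without HCT-8 replicate 2 only SRSF2 passed (adjusted p = 0.034; SRSF7 0.073, SRSF1 0.088, SRSF3 0.26), and without CM of HCT-8 replicate 2 SRSF5 and SRSF11 were called as well, making 6. SRSF3 was also lost without HCT-8 replicate 1, HCT-8/FU replicate 2 or either library of resistant CM (adjusted p = 0.058 to 0.14). The opposite-strand neighbours of SRSF2 and SRSF1 showed the same kind of difference, 0.58 ± 0.11 for MFSD11 (adjusted p = 0.0026) and 0.71 ± 0.15 for ENSG00000279069 (adjusted p = 0.0052).

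**Figure D4:**
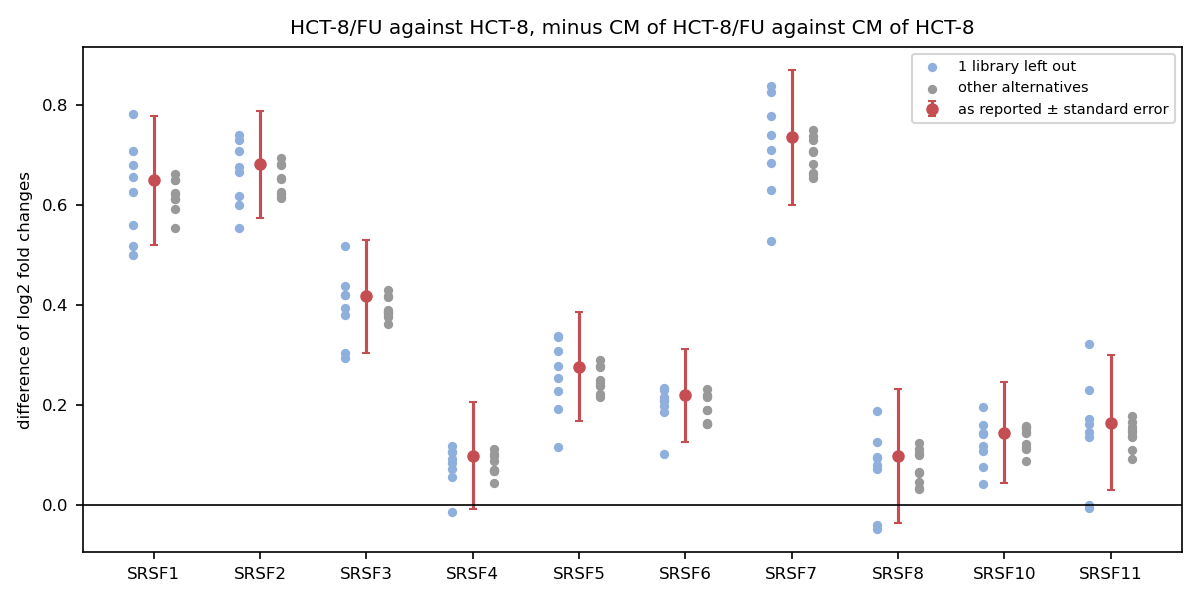
Log2 fold change in HCT-8/FU against HCT-8 minus that in resistant CM against own CM (vertical axis) for each SR factor, as reported with its standard error (red), with 1 library left out in turn (blue) and under the other alternatives (grey). SRSF1, SRSF2, SRSF3 and SRSF7 stay above 0.29 in all settings drawn, whereas SRSF4, SRSF8 and SRSF11 reach 0 or below.

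The third comparison set HCT-8 cells in CM from HCT-8 against HCT-8 cells in unconditioned medium. It shares libraries with both comparisons above, so its values are given side by side with theirs and not as independent results. At the FDR, 3 SR factors were higher (SRSF1, SRSF2, SRSF7) and 1, SRSF10, was lower, and 0 were DE by edgeR or by DESeq2, with 5 at an unadjusted p under 0.05 by edgeR. Among all tested genes, 19.4% passed the FDR (9.04% higher and 10.4% lower) and 8.15% were DE (3.86% higher and 4.29% lower). SRSF2 had a log2 fold change of 0.47 ± 0.08 (adjusted p = 0.00057), next to 0.47 in HCT-8/FU against the same HCT-8 libraries. SRSF7 had one of 0.46 ± 0.10 (adjusted p = 0.0034) and SRSF1 one of 0.29 ± 0.09 (adjusted p = 0.041), the latter called in only 3 of the 8 fits that left out 1 library each. Without HCT-8 replicate 2 the adjusted p was 0.054 for SRSF2, 0.20 for SRSF7 and 0.46 for SRSF1, and without CM of HCT-8 replicate 2 SRSF7 was DE. SRSF10 fell by 0.29 ± 0.07 on the log2 scale (adjusted p = 0.0094), and SRSF11 had a value of -0.25 ± 0.10 (adjusted p = 0.090). Without HCT-8 replicate 1 the adjusted p of SRSF10 was 0.059, and without CM of HCT-8 replicate 1 SRSF11 was called lower (-0.41, adjusted p = 0.00063).

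After the correction, SRSF1 (0.48, adjusted p = 0.010), SRSF2 (0.40, adjusted p = 0.025), SRSF4 (0.31, adjusted p = 0.027) and SRSF7 (0.56, adjusted p = 0.0043) were called higher in own CM, against 5.6% of all tested genes, with 6.52% lower. SRSF10 was then at 0.04 and SRSF11 at 0.04 on the log2 scale, and neither was called. As counted, the libraries did not overlap for 6 SR factors that were higher and 2 that were lower, compared with 27.2% and 27.1% of all tested genes. Within the libraries with many records not aligned and within the others (1 per group in each), the log2 ratios were 0.50 and 0.44 for SRSF2, 0.45 and 0.47 for SRSF7, 0.32 and 0.25 for SRSF1, and -0.32 and -0.27 for SRSF10. MFSD11, opposite SRSF2, was higher as well (0.53 ± 0.08, adjusted p = 0.00025). The summed level of the 11 colon epithelium markers was also higher in own CM, at 10900 to 11800 CPM compared with 9790 to 9870 CPM in HCT-8, and its part in these values was not tested.

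Summed over the 10 genes, SR factor transcripts made up 1782.1 and 1669.0 CPM in HCT-8, 2156.0 and 2302.9 CPM in HCT-8/FU, 1937.2 and 1821.5 CPM in own CM, and 1863.9 and 1865.1 CPM in resistant CM. Both HCT-8/FU libraries had the highest sums of the 8. These sums are as counted. After the correction, the median log2 fold change of the 10 genes in HCT-8/FU was 0.01 (all tested genes -0.03). Across the 8 libraries, the log2 levels of SRSF2 and SRSF7 followed each other most closely (r = 0.98), and those of SRSF10 and SRSF11 also did (r = 0.96), as did those of SRSF1 and SRSF3 (r = 0.93) and of SRSF1 and SRSF7 (r = 0.91), whereas SRSF4 and SRSF10 ran opposite (r = -0.89). These correlations describe 8 libraries in 4 groups that share differences in depth and GC trend. The genes whose pattern was most like the mean standardized pattern of the 10 SR factors, among the 8434 genes that averaged 20 CPM or more, were FKBP3 (r = 0.98), HMGB3 (r = 0.98), DDX5 (r = 0.98), MACROH2A1 (r = 0.97) and HMGN3 (r = 0.97).

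Another 2 genes carry SRSF symbols. SRSF9 was at 140.7 and 126.5 CPM in HCT-8, 113.5 and 114.8 CPM in HCT-8/FU, 188.5 and 146.9 CPM in own CM, and 143.3 and 139.6 CPM in resistant CM. Its log2 fold change was -0.22 in HCT-8/FU (adjusted p = 0.11) and -0.24 in resistant CM (adjusted p = 0.11), and 0.33 in own CM against HCT-8 (adjusted p = 0.035), a call that was lost after the correction (0.30, adjusted p = 0.14). SRSF12 had too few counts to be tested. Annotated SRSF pseudogenes held at most 7 counts in any library.

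Of 8 kinases of SR and other splicing proteins, 5 rose and 2 fell in HCT-8/FU, where 18.6% and 18.1% of all tested genes did, and 3 rose and 2 fell in resistant CM, where 11.2% and 8.49% did. After correction, HCT-8/FU had 3 kinases higher and 2 lower (11.9% and 16.3% of all tested genes), and 0 were higher and 1, CLK3, was lower in resistant CM (4.05% and 5.9%). UHMK1, a kinase with a U2AF homology motif, went from 119.1 and 135.4 CPM in HCT-8 to 284.9 and 286 CPM in HCT-8/FU (log2 fold change 1.16 ± 0.08, adjusted p = 7.5e-08; 0.52 after correction, adjusted p = 0.0014). In resistant CM its log2 fold change was 0.80 ± 0.08 (adjusted p = 5.3e-06), and 0.17 after correction (adjusted p = 0.34). As counted, PRPF4B (1.01 and 0.96) and CLK4 (0.97 and 0.61) rose in both comparisons, SRPK2 rose in HCT-8/FU (0.34), and CLK2 (-0.27 and -0.27) and CLK3 (-0.28 and -0.29) fell in both, while CLK1 had values of 0.03 and 0.15 that were not called. After correction, PRPF4B was called in HCT-8/FU (0.36, adjusted p = 0.042) and not in resistant CM (0.32, adjusted p = 0.13), and CLK4 was called in neither (0.32, adjusted p = 0.097, and -0.02, adjusted p = 0.96). SRPK2 was then at -0.08 in HCT-8/FU (adjusted p = 0.68), and CLK2 lost both calls (-0.08 and -0.12). CLK3 stayed lower in both (-0.29, adjusted p = 0.036, and -0.40, adjusted p = 0.014), and CLK1 was called lower in HCT-8/FU (-0.46, adjusted p = 0.0026). SRPK1, which phosphorylates SR proteins in the cytoplasm, rose in HCT-8/FU (0.76 ± 0.10, adjusted p = 2.6e-05; 0.67 after correction, adjusted p = 0.00085). Its value in resistant CM was 0.07 (adjusted p = 0.70), and the difference of 0.69 ± 0.14 passed the test (adjusted p = 0.0045; 0.67 after correction, adjusted p = 0.024).

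Of 22 SR-related splicing factors, 15 rose and 3 fell in HCT-8/FU (median log2 fold change 0.36), and 9 rose and 5 fell in resistant CM, where 18.6% and 18.1% and then 11.2% and 8.49% of all tested genes did. After correction the counts were 3 higher and 3 lower in each comparison. For HCT-8/FU these are near the shares of all tested genes, 11.9% higher and 16.3% lower, and for resistant CM those shares were 4.05% and 5.9%. SCAF11, a nuclear protein with an arginine and serine rich region, had the lowest adjusted p in both. Its levels were 57.4 and 56.65 CPM in HCT-8, 159 and 152.6 CPM in HCT-8/FU, 45.35 and 29.72 CPM in own CM, and 99.82 and 107.9 CPM in resistant CM. Its log2 fold changes were 1.45 ± 0.13 (adjusted p = 7.4e-07) and 1.52 ± 0.14 (adjusted p = 2.0e-06), and 0.78 (adjusted p = 0.00045) and 0.82 (adjusted p = 0.0015) after correction. U2AF1, a subunit of the factor that reads the 3′ splice site, was lower in HCT-8/FU (-0.83 ± 0.23, adjusted p = 0.011), but it has a near-identical copy in this assembly that can split its reads, so the value is uncertain.

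Of 18 hnRNP proteins, which often oppose SR proteins at exons, 8 rose and 3 fell in HCT-8/FU (all tested genes 18.6% and 18.1%) and 1 rose and 9 fell in resistant CM (11.2% and 8.49%). After correction, the split was 1 higher and 8 lower for HCT-8/FU (all tested genes 11.9% and 16.3%), against 0 higher and 10 lower for resistant CM (4.05% and 5.9%). The change differed between the comparisons at the FDR for 6 of the 18 as counted and for 4 after correction, in each case being larger in HCT-8/FU, a direction called for 5.15% of all tested genes as counted and 3.86% after correction. SYNCRIP, an RNA-binding hnRNP, rose in HCT-8/FU (0.88 ± 0.07, adjusted p = 2.7e-07; 0.24 after correction, adjusted p = 0.058). PCBP1, which binds C-rich RNA, fell (-0.59 ± 0.09, adjusted p = 6.1e-05; -0.43 after correction, adjusted p = 0.016). Of 7 genes for import, export and dephosphorylation of SR proteins, 1 rose and 2 fell in HCT-8/FU (all tested genes 18.6% and 18.1%). In resistant CM, 1 rose and 1 fell (11.2% and 8.49%). After correction 0 were higher in either (all tested genes 11.9% in HCT-8/FU and 4.05% in resistant CM). Lower were then 2 in HCT-8/FU (16.3%) and 1 in resistant CM (5.9%). PPP1CB, a catalytic subunit of protein phosphatase 1, rose in both (0.71 ± 0.08, adjusted p = 3.6e-06, and 0.61 ± 0.08, adjusted p = 3.7e-05), with values of 0.19 and 0.12 after correction that were not called. NXT1, a partner of the mRNA export receptor, fell in HCT-8/FU (-0.71 ± 0.20, adjusted p = 0.012; -0.59 after correction, adjusted p = 0.031).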

How the data were processed

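Messenger RNA was captured on beads and sequenced as paired reads of 150 bases. Per the labels and the methods of the study, the authors aligned reads to GRCh38 with HISAT2, sorted them with SAMtools 1.18 and counted them per Ensembl gene with HTSeq 0.11.2. The deposited values are raw counts. The strand setting is not stated in the sources used here. The authors' 2 tables of DESeq2 1.30.0 comparisons (fold changes and p-values) were not used. The labels and the study's methods name different basal media.

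Genes without enough counts were removed with filterByExpr, which left 20305 of 64253. edgeR 4.0.16 (R 4.3.3) fitted TMM-normalized counts with a quasi-likelihood model of 4 group means over all 8 libraries, and p-values were adjusted by the Benjamini-Hochberg procedure over all tested genes. A gene rose or fell at FDR ≤ 0.05 and was DE if the log2 fold change also reached 0.58 in size, as in the study. SE is the log2 fold change divided by the root of F. CPM used TMM-scaled library sizes. For the correction, a spline of 5 degrees of freedom on GC content and on log length was fitted per library for 19857 genes with GENCODE annotation, which matched 56105 gene IDs, and used as offset. The alternatives were DESeq2 1.42.0, other normalizations, filters, libraries and terms. The edgeR and DESeq2 fits and the correction were tested on simulated data. Records assigned to no gene stayed out of library sizes, and between 29.7% and 40.8% of records were counted.

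The SR factors and the other gene lists were chosen with earlier results of these data known. Genes named from the other lists were those with the lowest adjusted p in each direction among DE genes, all kinases, and the 5 genes most like the SR factors in pattern. MFSD11 and the other genes overlapping SR factors were chosen after their position was seen. Promoter windows are from RefSeq. Alternative splicing was not analysed here.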

Additional observations from a re-analysis of the deposited data

Results flagged for a closer look

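Between the 2 comparisons that share no library, HCT-8/FU against HCT-8 and resistant CM against own CM (HCT-8 cells in medium from resistant or from HCT-8 cells), 4 SR factors changed by different amounts, as the edgeR test of the difference itself found. The difference on the log2 scale was 0.649 for SRSF1, 0.681 for SRSF2, 0.417 for SRSF3 and 0.735 for SRSF7. Each of the 4 was higher in both HCT-8/FU libraries than in both HCT-8 libraries, as were 32.7% of all tested genes. Each was also lower in both libraries of resistant CM than in both of own CM, as were 34.5%. SRSF6 had the same directions. As counted, none of the 4 falls in resistant CM passed the FDR (edgeR adjusted p = 0.061 to 0.69). After GC and length correction, SRSF1 (-0.575), SRSF3 (-0.489) and SRSF7 (-0.462) were called lower there (adjusted p = 0.0039 to 0.013). In HCT-8/FU the corrected values of these genes were 0.037, -0.104 and 0.202, and none was called. The corrected difference stayed called for SRSF1, SRSF2 and SRSF7 and was lost for SRSF3 (adjusted p = 0.11). As counted, the difference itself was called in this direction for 5.15% of all tested genes. In the fits that left out 1 library each, the call held in 8 of 8 for SRSF2, 7 of 8 for SRSF1 and SRSF7, and 3 of 8 for SRSF3.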

How the results depend on the processing

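The 710 alternative values of single SR factors kept direction and call in 600 cases, lost the call in 38, gained it in 34 and turned direction in 38. With the GC and length correction, alone or with the replicate block, the DE count was 0 in HCT-8/FU (2 as reported) and 0 in resistant CM (1 as reported). With CM of HCT-8 replicate 2 as TMM reference the counts were 4 and 2, and with only the groups compared the count in resistant CM was 2. By FDR alone the counts were 6, 3 and, in own CM against HCT-8, 4 (0 as reported). Leaving out 1 library gave 2 to 4 in HCT-8/FU (4 without HCT-8/FU replicate 1), 0 to 1 in resistant CM and in own CM (0 and 1 without CM of HCT-8 replicate 2), and 1 to 6 genes for the difference (4 as reported). The cause of these changes was not tested.

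The replicate block left the counts at 2, 1, 0 and 4. The correlations of same-numbered deviations between groups ran from -0.12 to 0.13. Weak correlations cannot exclude that samples were paired, and the labels give only replicate numbers. For HCT-8 and own CM, the pair at 0.13, replicate 1 is in both groups the library with many records not aligned.

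Many directions that turned were of values near 0, but the correction also turned larger values, some of them called as counted. In HCT-8/FU, it gave -0.104 for SRSF3, -0.216 for SRSF6 and -0.019 for SRSF10, with the replicate block as well. As counted these were 0.362, 0.162 and 0.661. SRSF4 was 0.014 with the other TMM reference. SRSF5 was 0.086 with that reference, 0.007 with DESeq2 size factors, 0.016 with the filter on a mean count of 10, 0.004 by DESeq2, 0.001 with a term for the libraries in which over 15% of records did not align, 0.011 with only the groups compared, and -0.104 to 0.060 with 1 library left out. In resistant CM, SRSF3 and SRSF6 were 0.031 and 0.030 with the other reference, 0.034 and 0.033 with only the groups compared, and -0.071 to 0.004 and -0.062 to 0.002 with 1 library left out. There the correction gave -0.175 for SRSF10 and -0.003 for SRSF11 (-0.172 and -0.002 with the replicate block), compared with 0.517 and 0.624 as counted. In own CM against HCT-8 it gave 0.036 for SRSF10 and 0.041 for SRSF11 (0.035 and 0.040 with the block), compared with -0.295 and -0.248 as counted. With 1 library left out, SRSF3 ran there from -0.001 to 0.136, SRSF5 from -0.014 to 0.201 and SRSF8 from -0.073 to 0.157. For the difference, SRSF4 ran from -0.015 to 0.117, SRSF8 from -0.049 to 0.188 and SRSF11 from -0.006 to 0.321. With 2 libraries per group, a fit without 1 of them assumes that the lone library varies like the others. The lowest count of any SR factor in any library was 363, and the part of depth in these values was not tested. The libraries with the fewest counts were also those with many records not aligned, so these cannot be told apart.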
